A study of Mus musculus with 4 samples.

Results

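The response of wt macrophages to lipopolysaccharide (LPS) was read from 2 lists of acetylated histone H4 peaks, 1 from untreated cells and 1 from cells given 100 ng/ml LPS for 4 h. Peaks of the 2 lists that overlapped by at least 1 bp were merged, which turned 88256 of the 175801 peaks of the series into 54634 regions. All 4 lists of the series together gave 62522 regions. A region was shared when both lists had a peak in it, LPS-only when only the LPS list did, and untreated-only when only the untreated list did. The cells were C57BL/6 bone marrow-derived macrophages on day 7 of differentiation, and the mapping was by chromatin immunoprecipitation and sequencing (ChIP-seq). The cells that the submitters call wt were HDAC3 +/-, so both libraries come from cells heterozygous for HDAC3, a histone deacetylase. The other 2 libraries of the series, from HDAC3 -/- (HDAC3 KO) cells with and without the same LPS treatment, played no part in defining or classifying the regions and are used here as a second pair at the same places. Each group had 1 library, so every value below describes peak lists, and no difference could be set against a spread between replicates.

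LPS, from the cell envelope of Gram-negative bacteria, is sensed by macrophages through the receptor TLR4, which activates NF-kB and interferon regulatory factors and switches on cytokine, chemokine and antiviral genes. Acetyl groups on the tail of histone H4 are placed by acetyltransferases that such factors recruit, are removed by deacetylases and are bound by bromodomain proteins. The mark is found at active promoters and enhancers, and it can spread into broad domains over strongly transcribed genes.

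The wt lists held 48706 peaks over 35.4 Mb without LPS and 39550 peaks over 37.4 Mb with it. Each peak carried a score from the authors' peak caller, with 50.0 as the lowest value in both lists. Scores were compared only as percentile ranks within a list, with 100 as the top. Ties limit these ranks: 5 untreated and 288 LPS peaks had a score of exactly 3100, so the LPS peaks tied there share the rank 99.6. The lists give no read depth, and a wider or better-ranked peak cannot be told apart from deeper sequencing, a more efficient precipitation or a different input library. The regions carry no gene names here, so the macrophage identity of the cells was not examined.

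The 3 classes showed both gains and losses of calls, and a larger covered length where both lists had a peak. Of the 54634 regions, 24755 (45.3%) were shared, 12546 (23.0%) were LPS-only and 17333 (31.7%) were untreated-only. Untreated-only regions were the more numerous kind, but this order depended on the lists' length: among the 20000 highest-scored peaks of each list there were 6970 LPS-only and 5713 untreated-only regions. Covered length, the summed width of a list's peaks, was 2.04 Mb greater with LPS. That difference had 3 parts. Shared regions were covered over 26.5 Mb untreated and 29.5 Mb with LPS, LPS-only regions added 7.91 Mb, and untreated-only regions took away 8.86 Mb. Single-list regions therefore nearly cancelled in length, and the shared regions alone differed by 2.996 Mb in the direction of LPS.

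**Figure D1:**
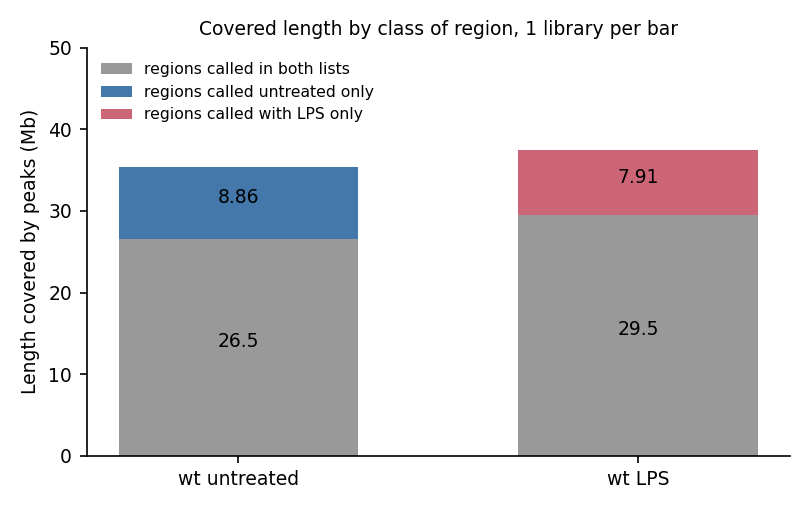
Length covered by peaks (Mb) in each wt list, split into regions called in both lists (grey) and in 1 list only (coloured); each bar is 1 library. The grey part is 26.5 Mb untreated and 29.5 Mb with LPS, while the coloured parts are 8.86 and 7.91 Mb.

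Most of the overlaps behind the shared class were close to complete. The median overlap was 709 bp, and in 20404 shared regions (82.4%) it reached 90% of the smaller covered length. Only 52 shared regions (0.21%) rested on an overlap of 50 bp or less, with median ranks of 26.5 untreated and 17.8 with LPS. Just outside the limit, 574 LPS-only regions (4.58%) and 1037 untreated-only regions (5.98%) lay within 100 bp of a peak of the other list.

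Within shared regions coverage with LPS was a little greater at the middle of the distribution and somewhat more so at its upper end. The third quartiles were 1374 bp untreated and 1496 bp with LPS, and the 95th percentiles 2366 and 2790 bp. Median covered length was 884 bp untreated and 945 bp with LPS, and the median log2 ratio of LPS over untreated was 0.10, with quartiles of -0.23 and 0.47. Coverage was greater with LPS in 14585 shared regions (58.9%) and smaller in 10144 (41.0%). At least 2-fold more covered bp was found with LPS in 2349 shared regions (9.49%), against 1129 (4.56%) with at least 2-fold more in untreated cells. The whole lists differed in covered length by 0.08 on the same log2 scale. When each list was divided by its own total, the median log2 ratio became 0.02 and the 2-fold counts became 2029 and 1367. The centre of the distribution therefore nearly matched the difference in total length, while the excess of 2-fold wider regions with LPS persisted in smaller size.

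The 2 shares varied with how highly a region ranked in both lists. Shared regions were split by the mean of their 2 ranks, which treats the lists alike. The split is not independent of the shares, because rank and coverage usually moved together. A region whose ranks differ widely cannot have a mean rank above 90. A rank difference of at least 25 points in the same direction was found in 82.2% of regions 2-fold higher untreated. For regions 2-fold higher with LPS it was 55.8%. The contrast above a mean rank of 90 is therefore partly set by the split. Between mean ranks of 40 and 60, 13.2% of 5999 regions had 2-fold more coverage with LPS and 9.05% had 2-fold more without. Among the 3106 regions with a mean rank above 90, the shares were 3.80 and 0.23%, or 118 against 7 regions. These strongest regions had a median covered length of 1792 bp untreated and 1999 bp with LPS. They made up 0.93 Mb of the 2.996 Mb by which shared regions differed, and 6.43 Mb of the 26.5 Mb that shared regions covered untreated.

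**Figure D2:**
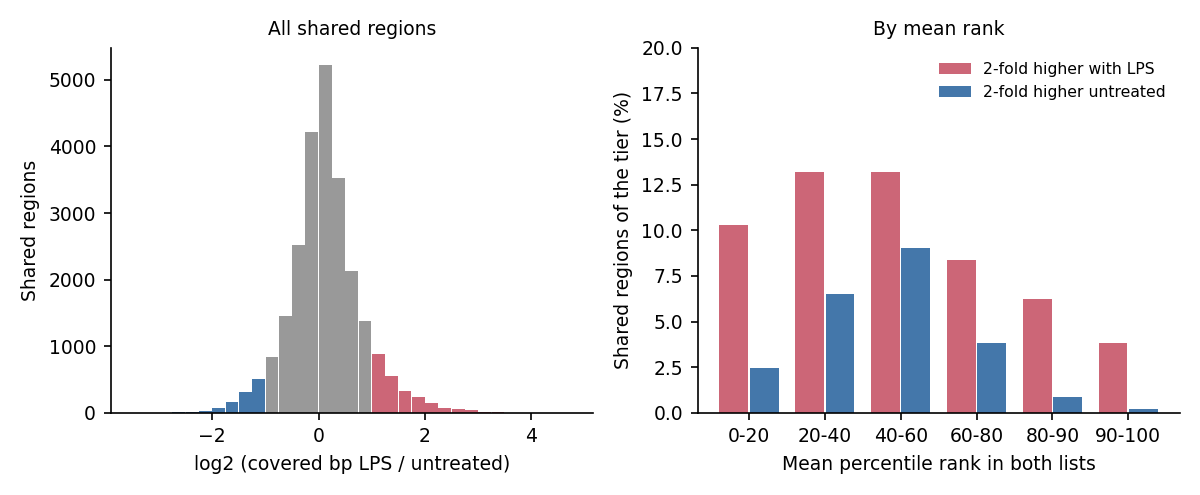
Left, number of shared regions by log2 ratio of covered bp (LPS over untreated), with those at least 2-fold higher with LPS in red and at least 2-fold higher untreated in blue; right, the share of regions in those 2 groups (%) by mean percentile rank in both lists. Red exceeds blue in every tier, from 13.2 against 9.05% at mean ranks of 40 to 60 to 3.80 against 0.23% above 90. Regions whose ranks differ widely cannot reach the top tier.

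Ranks differed in both directions too. The median rank of a shared region was 70.0 in the untreated and 63.8 in the LPS list, and 17234 regions (69.6%) stayed within 25 points. A rank at least 25 points higher with LPS was found in 2729 shared regions (11.0%), and one at least 25 points higher in untreated cells in 4792 (19.4%). Ranked among shared regions alone, the numbers were 3908 and 3890. That ranking centres the differences near 0 by construction, so its near-equal counts say nothing about the imbalance. Rank and coverage usually moved together. Of the 2349 regions with 2-fold more coverage under LPS, 1310 (55.8%) also ranked at least 25 points higher and 26 (1.11%) ranked at least 25 points lower. Of the 1129 with 2-fold less coverage, 928 (82.2%) ranked at least 25 points lower and 0 ranked 25 points higher. Across the 24755 regions the log2 ratio and the rank difference had a Pearson r of 0.69. Both come from the same peaks, since a wide peak tends to have a high score.

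**Figure D3:**
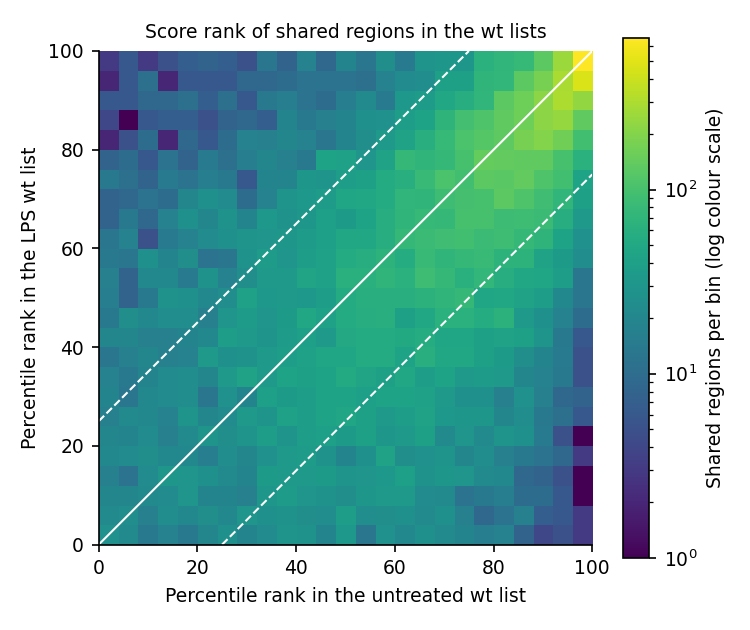
Percentile rank of each shared region's highest score in the untreated wt list (x axis) and the LPS wt list (y axis), as a count of regions per bin on a log colour scale; the solid line marks equal rank and the dashed lines a difference of 25 points. Most regions lie near the line, densest at the top, with 2729 regions above the upper dashed line and 4792 below the lower one.

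Several separate untreated peaks often corresponded to 1 LPS peak. This was the case in 4387 shared regions (17.7%), whereas 1080 (4.36%) had 1 untreated peak and several LPS peaks. Coverage in the first kind was 1397 bp untreated and 1580 bp with LPS at the median, and the median rank was 76.2 untreated and 82.7 with LPS. Where 4 or more untreated peaks met 1 LPS peak, in 132 regions, median coverage was 3330 bp untreated and 4772 bp with LPS. The converse, 1 untreated peak against 4 or more LPS peaks, was found in 2 regions. A single peak that meets several peaks of the other list also covers the gaps between them. Greater coverage with LPS in the first kind is therefore partly set by how those regions were picked. The median log2 ratio was 0.15 over all regions with several untreated peaks and 1 LPS peak, and -0.02 in the converse kind. At the 130 of the 132 regions with a peak in both HDAC3 KO lists, the mean number of peaks was 2.81 in the untreated and 1.56 in the LPS list. HDAC3 KO means were lower with LPS in the converse kind as well, at 1.45 untreated and 1.34 with LPS over 979 of the 1080 regions with 1 untreated and several LPS peaks in wt, so the HDAC3 KO order did not follow the wt class. The balance depended on how close peaks were treated: with peaks joined across gaps of up to 500 bp there were 4664 and 1948 such regions.

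The highest-scored regions of each list were then looked up in the other. Of the 1000 regions with the highest LPS scores, 31 had no untreated peak, 65 had one ranked below the untreated median, and 637 had one ranked at 90 or above. Of the 1000 with the highest untreated scores, 4 had no LPS peak, 20 had one ranked below the LPS median, and 750 had one at 90 or above. Coverage was at least 2 times that of the other list in 254 of the top LPS regions and in 31 of the top untreated regions. Their median coverage was 3180 bp with LPS against 2102 bp untreated for the first set, and 2247 bp untreated against 2140 bp with LPS for the second. These sets were compared after the lists had been examined, and the lowest score in them was 1776 for LPS and 890 for untreated.

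The regions whose rank differed most in favour of LPS were barely called in untreated cells and were among the top peaks with LPS. Coordinates are those of the mm9 build, counted from 1. The first, at chr3:142159784-142163869, had 538 bp at rank 1.27 untreated and 4086 bp at rank 99.2 with LPS, 7.59-fold more coverage. In HDAC3 KO it was covered over 738 bp untreated and 4086 bp with LPS. The second, at chr11:100448706-100451082, had 261 bp at rank 1.72 untreated and 2377 bp at rank 97.8 with LPS. The HDAC3 KO lists had no untreated peak there and 2377 bp with LPS. The third lay on unplaced sequence (chrUn_random:3740973-3744432), with 297 bp untreated and 3460 bp with LPS, a ratio of 11.6. The next were chr2:30767504-30771270 (428 and 3767 bp), chr16:24654273-24657077 (519 and 2805 bp) and chr10:87882760-87885114 (334 and 2355 bp). All 6 were also covered over more bp with LPS in HDAC3 KO, and 4 of them had no untreated HDAC3 KO peak.

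Gains in covered bp were largest where several shorter untreated peaks met 1 long LPS peak, which also covers the gaps between them. At chr11:83341517-83350938, 2 untreated peaks covered 888 bp and 1 LPS peak covered 9422 bp, 10.6-fold more. Next to it, chr11:83350998-83360030 had 2320 bp untreated and 9033 bp with LPS. The stretch after that, at chr11:83360651-83365606, was LPS-only and 4956 bp wide. With 1 further peak these neighbours formed a block of 4 LPS peaks at chr11:83340748-83365606, 24.9 kb long, with 23.8 kb covered by LPS peaks and 3.21 kb by untreated peaks. In HDAC3 KO the same block was covered over 0.51 kb untreated and 20.7 kb with LPS.

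The other regions with the largest gains were chr5:115369618-115378467 (1545 bp untreated, 8850 bp with LPS), chr10:18727140-18735200 (1692 and 8061 bp), chr8:89402705-89410280 (1805 and 7547 bp) and chr6:113607390-113618140 (5183 and 10751 bp). At the last of these, 9 untreated peaks lay within 1 LPS peak. HDAC3 KO coverage was also greater with LPS at all 6 of the regions with the largest gains, by 3068 to 8989 bp. Every one of the 6 had the tied LPS score of 3100, so their LPS ranks could not be ordered.

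In the opposite direction, strong untreated regions had only a marginal LPS peak. The region at chr2:180171019-180173442 had 2424 bp at rank 98.1 untreated and 422 bp at rank 0.42 with LPS. The region at chr19:10095038-10098986 had 3949 bp at rank 99.8 untreated and 687 bp at rank 2.20 with LPS. At chr9:108011588-108014370 the values were 2783 bp untreated and 452 bp with LPS. HDAC3 KO coverage there was 2371 and 2252 bp at the first, 3881 and 3142 bp at the second, and 2783 and 1872 bp at the third, untreated and with LPS. The HDAC3 KO ranks at these 3 differed by -17.7 to -42.1 points (LPS minus untreated), against -95.4 to -97.7 points in wt. The remaining 3 by rank were chr2:30923263-30925627, chr12:77633866-77636205 and chr13:94941769-94945807, with rank differences of -90.04 to -91.6 points in wt. HDAC3 KO values differed among these. The chr12 region had the largest HDAC3 KO fall in rank of the 6, at -47.5 points, with 2340 bp untreated and 948 bp with LPS, against 2340 and 638 bp in wt. The other two had HDAC3 KO rank differences of 3.94 points on chr2 and -0.65 points on chr13.

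By covered bp, the largest loss was at chr7:149571107-149581595, where 4 peaks covered 10228 bp untreated and 4 covered 6657 bp with LPS. The chr13 region named above had 4039 bp untreated and 516 bp with LPS, 7.83-fold less, but 3874 and 3955 bp in HDAC3 KO. The others were the chr19 region, chr2:131028500-131032869 (4370 and 1212 bp), chr3:109053117-109057120 (3930 and 915 bp) and chr8:121945546-121951113 (5568 and 2900 bp). The biggest losses were thus smaller than the biggest gains, at -2668 to -3571 bp against 5568 to 8534 bp. HDAC3 KO coverage was lower with LPS at 3 of these 6 regions and higher at the other 3. Those HDAC3 KO differences were small, at -739, -224 and -10 bp where lower and 81, 221 and 253 bp where higher.

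LPS-only regions were mostly narrow and weak, with a small group of wide, strong ones. Their median width was 518 bp (quartiles 385 and 737 bp) against 447 bp (326 and 619 bp) for untreated-only regions, while shared regions spanned 1130 bp at the median. Median ranks within the own list were nearly alike, at 29.0 for LPS-only and 28.4 for untreated-only regions. A width of at least 2000 bp was reached by 195 LPS-only regions (1.55%) and 38 untreated-only regions (0.22%). At the same rank, LPS-only regions were also the wider: above rank 90 the median was 2176 bp for 197 LPS-only and 1456 bp for 98 untreated-only regions. LPS peaks were wider in general, with a median of 722 bp against 590 bp over the whole lists.

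Both classes lay at similar distances from shared regions. The median gap to the nearest shared region was 5642 bp for LPS-only regions and 7252 bp for untreated-only regions. A shared region was within 5 kb of 6063 LPS-only regions (48.3%, exact binomial interval 47.4 to 49.2%) and of 7634 untreated-only regions (44.0%, 43.3 to 44.8%). These intervals cover counting error only, and neighbouring regions are not independent. High-ranked regions were found at every distance: the share ranked above 75 lay between 5.11 and 6.77% of LPS-only regions and between 3.38 and 4.42% of untreated-only regions over the distance ranges, from within 100 bp to beyond 100 kb. LPS-only regions sat closer to each other, with a median gap of 2454 bp to the next LPS-only region against 4882 bp between untreated-only regions.

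**Figure D4:**
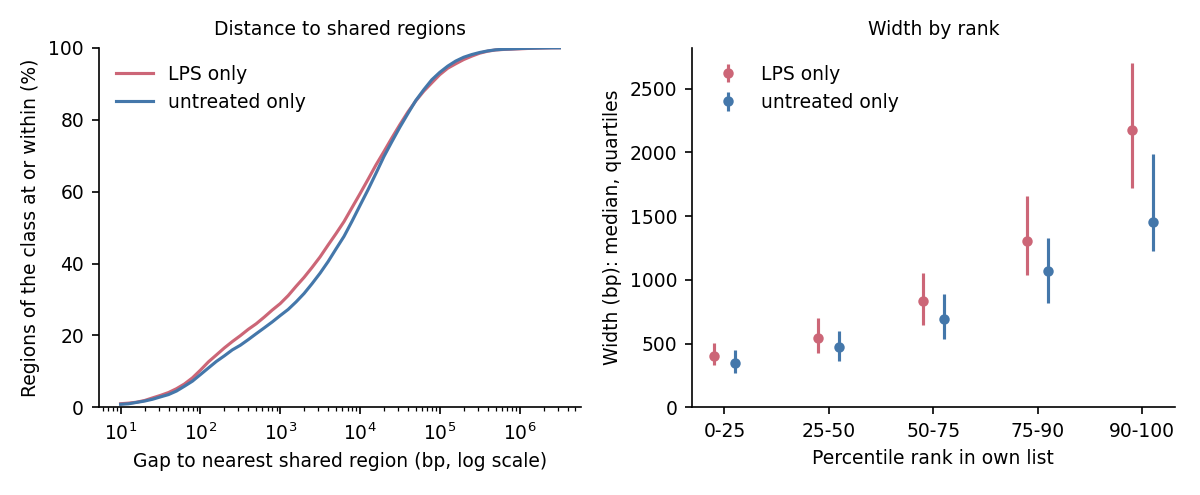
Left, cumulative share of LPS-only (red) and untreated-only (blue) regions by gap to the nearest shared region (bp, log scale); right, median width (bp) with quartiles by percentile rank in the own list. The distance curves nearly coincide, at 48.3 and 44.0% within 5 kb, while LPS-only regions are wider in every rank range, with medians of 2176 against 1456 bp above rank 90.

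The widest LPS-only region lay at chr7:81836527-81843394, with 6868 bp at rank 99.6 and no shared region within 6.59 kb. It was followed by chr6:91651863-91657268 (5406 bp), the chr11 region of the block above, chr1:133336155-133341084 (4930 bp), chr16:10842303-10847030 (4728 bp) and chr11:5628550-5632717 (4168 bp). The chr16 region stood 53.6 kb from a shared region. All 6 had an HDAC3 KO peak with LPS, and the 4 that also had one without LPS were covered there over 418 to 986 bp.

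The widest untreated-only regions were narrower than these. They lay at chr15:58576599-58580442 (3844 bp, rank 98.2), chr14:56380824-56384027 (3204 bp), chr6:116408569-116411594 (3026 bp), chr11:85624972-85627893 (2922 bp), chr6:99337428-99340235 (2808 bp) and chr2:163056301-163059103 (2803 bp). All 6 had an untreated HDAC3 KO peak, and 4 had an HDAC3 KO peak with LPS as well. At the chr15 region the HDAC3 KO coverage was 3623 bp untreated and 3460 bp with LPS, so a place with no LPS peak in wt had a peak in both HDAC3 KO lists.

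Some single-list regions stood far from any shared region although they ranked at 75 or above. Among LPS-only regions at those ranks the most isolated, chr2:65116934-65118790, was 1857 bp wide, ranked 83.3 and lay 843 kb from the nearest shared region. The next, chr17:68521697-68523174, was 1478 bp wide and 825 kb away. A neighbouring pair at chr2:137632891-137634053 and chr2:137634057-137634846 ranked 89.5 and 77.6. All 6 of the most isolated LPS-only regions at rank 75 or above had an HDAC3 KO peak with LPS and none without. The neighbouring pair met 1 HDAC3 KO peak with LPS, with the same score of 970.35, so the 6 are not 6 separate places. Of the 6 most isolated untreated-only regions at rank 75 or above, which lay 305 to 507 kb away, 5 had an untreated HDAC3 KO peak and 3 had one with LPS. The farthest of these 6 was chr18:8376865-8377411, 547 bp wide at rank 79.3. At chr9:115655464-115656205 the HDAC3 KO overlap was only 4 bp.

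Single-list regions also came in runs, several in a row with no region of another class between them. Runs of at least 3 held 5563 LPS-only regions (44.3%) in 1255 runs and 8073 untreated-only regions (46.6%) in 1916 runs. LPS-only runs were tighter, with a median span of 16207 bp against 28105 bp, and 44 of them held 10 or more regions against 33 untreated-only runs. The run with the most LPS-only regions, at chr18:74983427-75158977, held 26 regions over 176 kb, of which 26.8 kb were covered. HDAC3 KO peaks were found in 13 of the 26 with LPS and in 0 without. That is near the share over all LPS-only regions, of which 45.95% had an HDAC3 KO peak with LPS and none untreated. The run at chr16:24749628-24824845 held 19 LPS-only regions in 75.2 kb with a median rank of 61.3, well above the 29.0 of all LPS-only regions. The run with the most untreated-only regions, at chr16:23135701-23417082, held 27 over 281 kb, and 22 of them had an HDAC3 KO peak without LPS against 1 with it. A run of 20 at chr18:60826280-60926968 differed, with HDAC3 KO peaks in 19 regions untreated and in 16 with LPS. Over all untreated-only regions, 22.6% had an HDAC3 KO peak only untreated and 10.1% only with LPS.

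Longer acetylated stretches were more frequent with LPS. Peaks of 1 list joined across gaps of up to 1 kb (1000 bp) gave 40 blocks of at least 10 kb untreated and 151 with LPS, and 114 and 349 in the HDAC3 KO lists. The longest LPS block, at chr19:41393766-41422846, spanned 29.1 kb and was covered over 15.2 kb untreated and 27.3 kb with LPS. The block at chr16:24623572-24645637 was covered over 3.10 kb untreated and 19.5 kb with LPS, and in HDAC3 KO over 3.54 and 20.0 kb. It lies at lower coordinates than the chr16 run of 19 regions, and another block, at chr16:25036992-25065686, follows it, with 20.0 kb covered untreated and 27.6 kb with LPS. The longest untreated block, at chr16:96042526-96062688, spanned 20.2 kb and was covered over 16.6 kb untreated and 16.9 kb with LPS, by 13 peaks and 6. Long untreated blocks were thus not all shorter with LPS. At chr7:149569889-149586507 coverage was 15.4 kb untreated and 10.1 kb with LPS, against 16.1 and 15.7 kb in HDAC3 KO. These blocks were examined after the lists had been seen.

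In 50-kb windows, coverage was at least 5 kb greater with LPS in 375 of 16109 windows (2.33%) and at least 5 kb smaller in 122 (0.76%). In the first set the total difference was 3.02 Mb, of which LPS-only regions gave 1.86 Mb and wider coverage of shared regions 1.23 Mb, with 0.06 Mb taken off by untreated-only regions. In the second set it was -0.82 Mb, of which -0.65 Mb came from untreated-only regions and -0.17 Mb from shared regions. Shared regions thus made up 40.6% of the net difference in the windows with more coverage and 21.3% in those with less.

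The classes were spread over all chromosomes. LPS-only regions made up 18.9% of regions on chromosome 7 (interval 17.6 to 20.3%) and 30.1% on the X chromosome (27.5 to 32.7%), the lowest and highest shares among the autosomes and X. Untreated-only regions were lowest on the X chromosome as well, at 28.3% (25.8 to 30.9%), and highest on chromosome 18, at 36.2% (33.9 to 38.6%). On the X chromosome 12.3% of 513 shared regions had 2-fold more coverage with LPS, against 9.49% overall.

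The HDAC3 KO libraries gave a second reading of the same shared regions from separate samples. Both HDAC3 KO lists had a peak in 19883 of the 24755 shared regions (80.3%). In these, HDAC3 KO coverage was measured inside the boundaries of the wt region, and 7.23% had at least 2-fold more with LPS while 1.41% had at least 2-fold less. Of the 1438 that were 2-fold higher with LPS in wt, 518 (36.0%, interval 33.5 to 38.6%) were also 2-fold higher in HDAC3 KO, and 1254 (87.2%, 85.4 to 88.9%) had more coverage with LPS by any amount. Among regions within 2-fold in wt the corresponding shares were 5.06 and 65.2%. The median HDAC3 KO log2 ratio was 0.70 in the first group, where the wt median was 1.33, and 0.08 in the second. Wider coverage with LPS in wt was thus accompanied by wider coverage in HDAC3 KO in most of the regions.

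The regions with smaller coverage in wt were read in the same way. Of the 856 regions with 2-fold less coverage in wt, 81 (9.46%, 7.59 to 11.6%) were also 2-fold lower in HDAC3 KO, and 460 (53.7%, 50.3 to 57.1%) had less coverage by any amount, against 28.2% of the regions within 2-fold in wt. The median HDAC3 KO log2 ratio in this group was -0.03, where the wt median was -1.27. The share with less HDAC3 KO coverage stood above that of the regions within 2-fold, but the typical region with a peak in both HDAC3 KO lists differed little. Regions with a peak in only 1 HDAC3 KO list are left out of this reading and are counted below. Whether the genotypes differ was not tested, since each has 1 library per treatment.

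**Figure D5:**
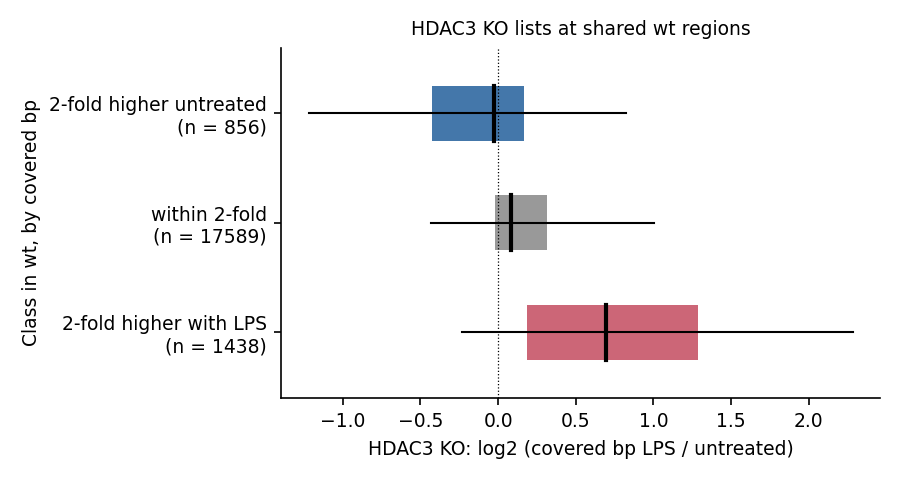
HDAC3 KO log2 ratio of covered bp (LPS over untreated) at shared wt regions with a peak in both HDAC3 KO lists, grouped by the wt ratio; boxes show quartiles, thick lines medians and thin lines the 5th to 95th percentiles over regions. The median is 0.70 for the 1438 regions 2-fold higher with LPS in wt, 0.08 for the 17589 within 2-fold and -0.03 for the 856 that were 2-fold higher untreated.

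Ranks were compared in the same regions. In HDAC3 KO, 14.8% of the 19883 regions ranked at least 25 points higher with LPS and 9.35% ranked at least 25 points lower. Where wt ranked at least 25 points higher with LPS, 821 of 1617 regions (50.8%, 48.3 to 53.2%) did so in HDAC3 KO. Where wt ranked at least 25 points lower, 967 of 3654 (26.5%, 25.04 to 27.9%) did so. Across the 19883 regions the wt and HDAC3 KO values had a Pearson r of 0.35 for the log2 ratio and 0.43 for the rank difference. These describe regions within 4 libraries, which are not independent replicates, and no library was shared between the 2 differences.

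The presence of HDAC3 KO peaks was counted for each class. Among the 2349 regions 2-fold higher with LPS in wt, 726 (30.9%) had an HDAC3 KO peak with LPS only and 44 (1.87%) untreated only, against 10.2 and 4.41% of all shared regions. Among the 1129 regions 2-fold higher untreated in wt, 49 (4.34%) had an HDAC3 KO peak with LPS only and 149 (13.2%) untreated only. For LPS-only regions the presence of an HDAC3 KO peak with LPS climbed with rank, from 44.5% of 5517 regions at rank 25 or below to 97.0% of 197 above rank 90 (interval 93.5 to 98.9%). Untreated HDAC3 KO peaks in LPS-only regions ranged only from 14.6 to 22.3% over the same ranks. Strong LPS-only regions were therefore called with LPS in HDAC3 KO too, and mostly not called there without it.

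The strongest untreated-only regions often had a peak in both HDAC3 KO lists. Above rank 90, 95 of 98 (96.9%, 91.3 to 99.4%) had an untreated HDAC3 KO peak, but 77 of 98 (78.6%, 69.1 to 86.2%) also had one with LPS. At rank 25 or below those shares were 32.4 and 27.0%. Over all untreated-only regions, 3918 of 17333 (22.6%) had an HDAC3 KO peak untreated and none with LPS. That share was 17.3% at rank 25 or below, 30.6% at ranks of 50 to 75, 31.6% at 75 to 90 and 20.4% above 90, where it rests on 20 of 98 regions. Over all LPS-only regions, 5765 of 12546 (45.95%) had an HDAC3 KO peak with LPS and none untreated, from 34.2% at rank 25 or below to 74.6% above 90. The HDAC3 KO LPS list covered 50.4 Mb, the longest of the 4, against 36.4 Mb in untreated HDAC3 KO, and the part of that difference in these shares was not tested.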

How the data were processed

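Acetylated histone H4 was mapped by ChIP-seq in 4 libraries, 1 per group. Bowtie and mm9 are named in the submitters' processing notes. Each library has its own list of MACS peaks called over input, per the file headers, so libraries were not pooled. Versions, settings and the input used are not given in the sources used here. The deposited score of each peak is the authors' own value, on a scale that is not stated, and was used only for ranks and for selecting peaks within a list.

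Peaks were merged in Python 3.11.15 (numpy 2.4.6, pandas 2.3.3), and the number of regions was checked with bedtools 2.31.1. A region's rank is the mid-rank percentile of its highest score among all peaks of its list. Intervals are exact (Clopper-Pearson, 95%, scipy 1.17.1). Merging, gaps and overlaps were tested on simulated lists, and 8 of 8 known quantities were recovered over 40000 regions. No test across conditions was possible. Figures used matplotlib 3.10.9.

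Named regions were, in each direction, the 6 with the largest difference in rank and in covered bp among shared regions with at least 2000 bp covered in the list with the higher value, the 6 widest single-list regions, and the 6 farthest from a shared region at rank 75 or above. The regions, classes and thresholds were chosen with earlier results of these data known. Gene models of the mm9 build were not used here, so no gene names, sequences or promoter counts are given. Start positions, deposited as counted from 0, were raised by 1. Alternatives changed the minimum score, the number of peaks kept, the gap across which peaks join, the overlap, the fold and rank limits, the scaling by list total and the chromosomes used.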

Additional observations from a re-analysis of the deposited data

Results flagged for a closer look

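At 4 of the named regions the LPS difference pointed one way in wt and the other way in HDAC3 KO. With 1 library per group, these differences between genotypes were not tested. In the region at chr13:94941769-94945807, covered length changed with LPS by -3523 bp in wt and by 81 bp in HDAC3 KO. At chr7:149571107-149581595 it changed by -3571 bp in wt and by 253 bp in HDAC3 KO. At chr3:109053117-109057120 the changes were -3015 bp in wt and 221 bp in HDAC3 KO. The HDAC3 KO changes at these 3 regions were small against coverages of 3719 to 10353 bp. The region at chr2:30923263-30925627 ranked 91.6 points lower with LPS in wt, while its HDAC3 KO rank difference was 3.94 points, with 2129 bp covered untreated and 2071 bp with LPS.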

How the results depend on the processing

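Each list has 1 library and no read depth, so replicate spread is unknown, and depth, precipitation and input cannot be told apart from the LPS treatment. Scores rank peaks only within a list. Covered length depends on how the caller splits or joins peaks. No paired analysis was possible because each group has 1 library and the labels carry no replicate numbers. Other promoter windows around genes were not run. Of 103 values of the main results recomputed under other settings, 43 stayed close to the reported value and 60 moved. For counts, staying close meant lying within a factor of 1.5 of the reported count. The 25-point rank counts of 2729 and 4792 became 3908 and 3890 when ranked among shared regions alone, so their order turned within that factor. Among these results only the median log2 ratio can carry a sign, and 0 of its values changed sign. The order of the single-list classes did turn under 1 setting given below. The HDAC3 KO share of regions with less coverage crossed 50% under that setting and under 1 other. Of 192 recomputed values for named regions, 17 moved and 0 changed sign. These regions were picked for their large differences, and the single-list ones have 0 bp in the other list. Their unchanged sign was therefore largely set by the choice and says little about stability. With autosomes only, no main result moved.

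Keeping peaks at or above the median score leaves fewer peaks. It gave 13503 shared, 5704 LPS-only and 8395 untreated-only regions, and a median log2 ratio of 0.16. The 2-fold counts were 1412 with LPS and 313 untreated, and the 25-point rank counts 1720 and 2982. LPS-only regions had a median width of 969 bp, a median rank of 31.5 and 35.0% within 5 kb of a shared region, and untreated-only regions 771 bp, 30.2 and 27.8%. Several untreated peaks met 1 LPS peak in 1916 regions, and 1 untreated peak met several LPS peaks in 312. HDAC3 KO coverage differed in the wt direction at 85.0% of regions 2-fold higher and 48.8% of those 2-fold lower with LPS.

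Keeping the 20000 highest-scored peaks, also fewer, gave 12472 shared, 6970 LPS-only and 5713 untreated-only regions, so the order of the single-list classes turned. The median log2 ratio was 0.156, the 2-fold counts 1327 and 297, and the 25-point rank counts 2092 with LPS and 2247 untreated. LPS-only regions had a median width of 955 bp, a median rank of 31.8 and 32.5% within 5 kb, and untreated-only regions 861 bp, 29.8 and 26.0%. The joining counts were 1413 and 332, and the HDAC3 KO shares 81.8 and 49.8%.

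Joining peaks across gaps of up to 500 bp gave 6760 LPS-only and 10723 untreated-only regions, a median log2 ratio of 0.067 and 1726 regions 2-fold higher untreated. LPS-only regions had a median width of 556 bp and 30.8% within 5 kb, and untreated-only regions a width of 490 bp, a rank of 30.1 and 28.8%. A single untreated peak met several LPS peaks in 1948 regions, and the HDAC3 KO shares were 89.99 and 57.1%. The cause was not tested. Requiring an overlap of 50% of the shorter peak gave a median log2 ratio of 0.119, shares within 5 kb of 49.4 and 46.7% and an HDAC3 KO share of 85.0%. Division by list totals gave a median log2 ratio of 0.0216.

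By construction, other limits changed the counts. At 1.5-fold there were 4988 regions higher with LPS and 2827 higher untreated, and at 3-fold 785 and 219. At 10 points of rank there were 5769 and 9395, and at 50 points 720 and 1243.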
